A study of Bos taurus with 90 samples.

Results

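The miR-30 family was represented by 6 mature miRNAs, miR-30a-5p, miR-30b-5p, miR-30c, miR-30d, miR-30e-5p and miR-30f. They were selected by name from the 388 miRNAs listed in at least 1 of 5 bovine tissues, and all 6 were listed in every tissue. Small RNA was sequenced from liver, mammary gland and 3 tissues labelled as epithelium, those of rumen, duodenum and jejunum, of 18 mid-lactation Chinese Holstein cows. The cows were fed a diet based on alfalfa hay, corn stover or rice straw, with 6 cows per diet, so each tissue had 18 samples and each tissue and diet had 6. No untreated group was part of the design, and values are given in CPM, the scaled count of a miRNA relative to all reads of a sample that mapped to annotated miRNAs.

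Members of the miR-30 family share the same seed, the short stretch near the 5′ end of a miRNA that pairs with target mRNAs, so they are predicted to bind largely overlapping sets of transcripts. The family is widely expressed in mammals and has been linked to autophagy, adipocyte differentiation and the maintenance of the epithelial state. In the bovine gene table of RefSeq (assembly ARS-UCD2.0) the 6 genes lie as 3 pairs of nearest miRNA neighbours. These are MIR30A with MIR30F, MIR30B with MIR30D, and MIR30C with MIR30E, the last pair lying within NFYC, which encodes a subunit of the transcription factor NF-Y. Since the alignment tolerated mismatches and multiple mappings, reads of such similar sequences could have been divided among members, which makes the split between them uncertain.

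Mapped totals implied by the CPM values ranged from 937556 to 15621501 reads, and the least abundant member, miR-30f, still had at least 110 reads in every sample. The 3 shallowest libraries were all of mammary gland, namely alfalfa hay replicate 1 with 937556, rice straw replicate 5 with 1527304 and rice straw replicate 1 with 1875290 reads, while the other 15 of that tissue held at least 2624975. In these 3 libraries miR-30a-5p made up 88.3 to 95.1% of the family, against 73.8 to 84.2% in the other 15 mammary gland samples. Mean summed markers differed too, but the ranges of every list overlapped. Red blood cells (miR-451, miR-144, miR-486) averaged 3826 against 1909 CPM, at 3251 to 4241 against 1070 to 3360. Immune cells averaged 1509 against 5394 CPM, at 573 to 2018 against 1299 to 9370. Glandular epithelium averaged 22687 against 44725 CPM, at 10598 to 31854 against 11549 to 67448. Smooth muscle averaged 191816 against 138686 CPM, and its range of 176541 to 210844 lay within the 70889 to 228766 of the other 15. The part of depth or of any of these cells in the miR-30 values was not tested. Values without the 3 libraries are an alternative chosen after seeing the data, and are given where they bear on a result.

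The leading tissue markers were high in their own tissues, with exceptions. miR-122 (liver) averaged 11021 CPM in liver, miR-205 (stratified epithelium) 33692 CPM in rumen, miR-192 (intestine) 256562 CPM in duodenum and 193633 CPM in jejunum, and miR-141 (glandular epithelium) 30150 CPM in mammary gland. miR-192 was also at 137788 CPM in liver and miR-141 at 11165 CPM in rumen, and miR-203 was not listed in any tissue. Of the other glandular epithelium markers, miR-429 averaged 824 CPM in mammary gland, below rumen (2577), duodenum (1098) and jejunum (1003). miR-200a, miR-200b and miR-200c were highest in mammary gland, with miR-200a at 4224 CPM there and 3815 CPM in rumen. Summed smooth muscle markers, mostly miR-143, had medians of 182309 CPM in rumen, 156981 in duodenum and 207471 in jejunum. The medians were 124978 CPM in liver and 126347 in mammary gland. In rumen the means of miR-133a (58.2 CPM) and miR-1 (1.79 CPM) were below those of liver (165 and 2.21 CPM). In duodenum and jejunum both were above liver, and miR-145 was above liver in rumen, duodenum and jejunum. A single liver library, alfalfa hay replicate 2, held 1525 CPM of miR-205 and 1038 CPM of miR-141, where the other 17 liver samples reached at most 13.0 and 421 CPM. Leaving it out, chosen after seeing the data, changed 1 member's call among the tissue pairs, liver diet tests and interaction, that of miR-30f in liver against mammary gland (0.40, limma adjusted p = 0.0465).

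miR-30a-5p, a repressor of the autophagy gene beclin 1, was by mean the most abundant member in every tissue but duodenum and had the widest range of tissue means. Its lowest, median and highest CPM were 64439, 97664 and 178128 in mammary gland, 73550, 88167 and 118208 in liver, 25479, 32638 and 46225 in rumen, 5750, 11254 and 16473 in jejunum, and 6783, 9580 and 11071 in duodenum. The samples thus fell into 3 levels without overlap, with liver and mammary gland at the top, rumen between, and both intestinal segments at the bottom. The means were 104797 ± 25911 CPM in mammary gland and 9235 ± 1252 CPM in duodenum (SD, n = 18 each), an 11.3-fold ratio. By mean abundance its rank among all listed miRNAs was 3 in mammary gland, 5 in liver, 8 in rumen, 18 in jejunum and 22 in duodenum. On the log2(CPM + 1) scale the difference of duodenum minus mammary gland was -3.48 (SE 0.09, limma adjusted p = 2.53e-55) and that of rumen minus liver was -1.46 (SE 0.09, limma adjusted p = 1.38e-26). Liver minus mammary gland (-0.18, SE 0.09, limma adjusted p = 0.0859) and duodenum minus jejunum (-0.21, SE 0.09, limma adjusted p = 0.159) did not pass the threshold of 0.05. Without the 3 shallow libraries the mammary gland mean was 97379 ± 14516 CPM (SD, n = 15), duodenum minus mammary gland was -3.40 (limma adjusted p = 3.69e-54) and liver minus mammary gland -0.09 (limma adjusted p = 0.350). In bulk tissue, fewer cells of an expressing type and less of the miRNA per cell cannot be told apart.

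**Figure D1:**
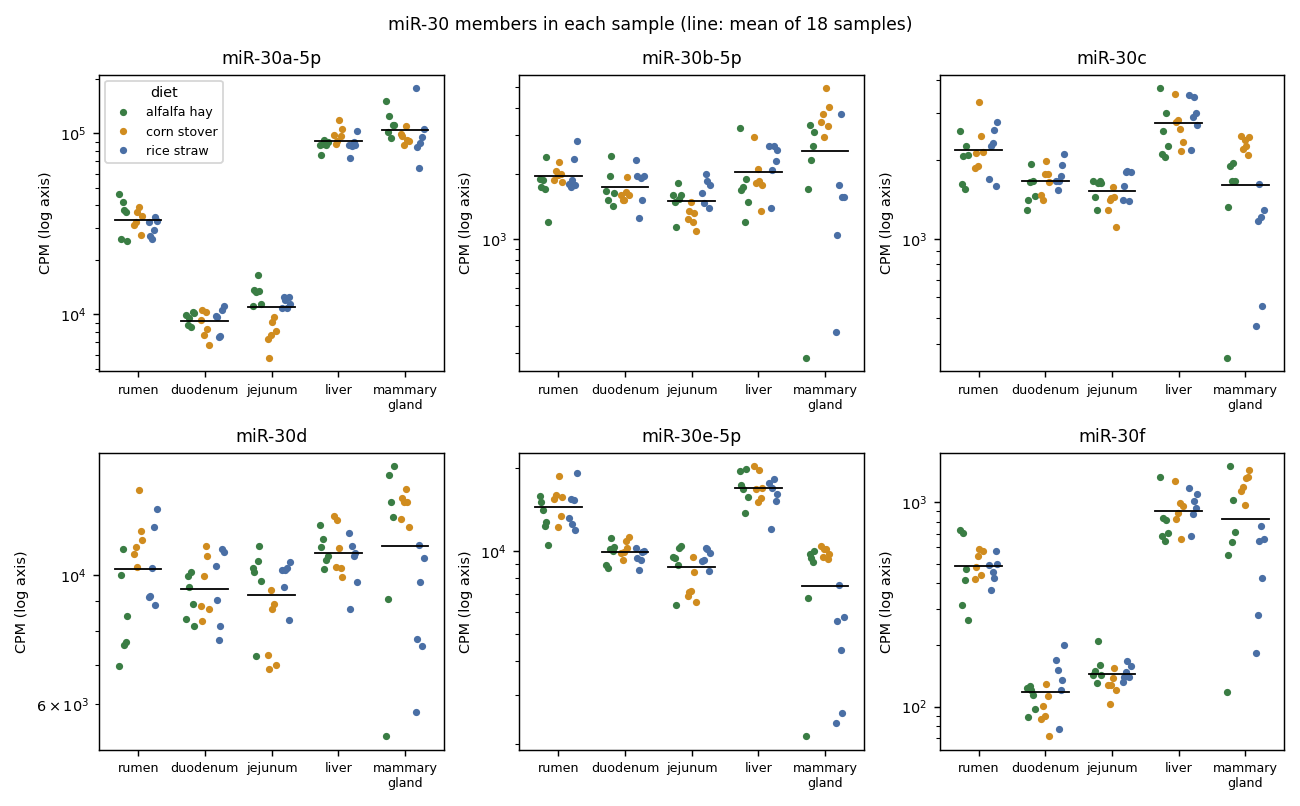
CPM of each miR-30 member (log axis) in every sample by tissue, coloured by diet, with a line at the mean of 18 samples. miR-30a-5p and miR-30f were lowest in both intestinal segments, miR-30d was nearly level, and in mammary gland 3 libraries lay far below the others for miR-30c and miR-30e-5p.

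miR-30f, whose gene neighbours that of miR-30a-5p, was the least abundant member in 90 of 90 samples and followed a similar order of tissues. Its lowest, median and highest CPM were 643, 880 and 1326 in liver, 117, 739 and 1494 in mammary gland, 264, 476 and 729 in rumen, 103, 141 and 209 in jejunum, and 71.7, 117 and 201 in duodenum. Every rumen and liver sample lay above every intestinal sample, while mammary gland ran from the intestinal range to above the liver range. The liver and duodenum means of 908 ± 206 and 118 ± 32.8 CPM (SD, n = 18 each) were 7.72-fold apart, and duodenum minus liver was -2.95 on the log2 scale (SE 0.18, limma adjusted p = 7.31e-28). Liver minus mammary gland was 0.38 (SE 0.18, limma adjusted p = 0.0578), and 0.04 without the 3 shallow libraries (limma adjusted p = 0.819).

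miR-30e-5p and miR-30c, which are produced from within NFYC, had another order of tissues, with liver and rumen first. For miR-30e-5p the lowest, median and highest CPM were 12049, 16830 and 20237 in liver, 10526, 14544 and 19119 in rumen, 8500, 9944 and 11199 in duodenum, 6370, 9247 and 10408 in jejunum, and 2135, 9218 and 10444 in mammary gland. Every liver sample lay above every sample of duodenum, jejunum and mammary gland, and every rumen sample above every sample of jejunum and mammary gland. Liver minus mammary gland was 1.32 on the log2 scale (SE 0.13, limma adjusted p = 7.75e-16) and remained at 1.02 without the 3 shallow libraries (limma adjusted p = 6.76e-19), so miR-30e-5p separated the same pair of tissues in which miR-30a-5p did not pass the test. Rumen minus liver was -0.23 (SE 0.13, limma adjusted p = 0.0930). Jejunum minus mammary gland was called at 0.37 (SE 0.13, limma adjusted p = 0.00833) but not without the 3 libraries (0.07, limma adjusted p = 0.476) or by edgeR (0.23, edgeR adjusted p = 0.0790).

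miR-30c, which is known to lower lipoprotein secretion in mouse liver, averaged 2765 ± 541 CPM in liver, 2172 ± 457 in rumen, 1665 ± 219 in duodenum, 1606 ± 672 in mammary gland and 1521 ± 195 in jejunum (SD, n = 18 each). The liver samples, from 2044 to 3742 CPM, all exceeded the jejunum samples, from 1109 to 1817 CPM. Liver minus mammary gland was 0.94 on the log2 scale (SE 0.15, limma adjusted p = 1.55e-08). The neighbouring levels of liver and rumen also differed, with rumen minus liver at -0.35 (SE 0.15, limma adjusted p = 0.0219). Rumen minus duodenum was 0.37 (SE 0.15, limma adjusted p = 0.0194), a call that was lost with trimmed-mean (TMM) scaling (0.09, limma adjusted p = 0.319) and with upper-quartile scaling (0.18, limma adjusted p = 0.0518). Duodenum, mammary gland and jejunum did not differ from each other by this test (limma adjusted p = 0.153, 0.567 and 0.711 for the 3 pairs). Without the 3 shallow libraries jejunum minus mammary gland was -0.24 (limma adjusted p = 0.0204), where the value over all samples was 0.09.

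miR-30d and miR-30b-5p are the remaining pair of neighbours. miR-30d, whose tissue means varied least of the 6 members with or without the 3 shallow libraries, averaged 11221 ± 3048 CPM in mammary gland, 10903 ± 989 in liver, 10225 ± 1919 in rumen, 9459 ± 1123 in duodenum and 9248 ± 1364 in jejunum (SD, n = 18 each), a 1.21-fold range of means that was 1.32-fold without the 3 libraries. No neighbours in that order differed by the test, and the called differences were duodenum minus liver (-0.21, SE 0.10, limma adjusted p = 0.0400), jejunum minus liver (-0.25, SE 0.10, limma adjusted p = 0.0150) and jejunum minus mammary gland (-0.23, SE 0.10, limma adjusted p = 0.0227), which was -0.39 without the 3 libraries (limma adjusted p = 7.21e-06). Without them rumen (-0.26, limma adjusted p = 0.00241) and duodenum (-0.36, limma adjusted p = 4.26e-05) were called lower than mammary gland as well. Rumen minus duodenum changed sign with the scaling, from 0.10 (limma adjusted p = 0.361) to -0.18 with TMM scaling (limma adjusted p = 0.00622). The residual SD of miR-30d within tissues and diets was 0.24 on the log2 scale, which ranked 6 from the lowest among 289 miRNAs with a median of 0.48. miR-30a-5p was lower still (0.23, rank 5), and the others were miR-30e-5p at rank 28, miR-30c at 55, miR-30f at 144 and miR-30b-5p at 175 (0.52).

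miR-30b-5p, whose forced expression in mouse mammary gland has been reported to impair lactation, averaged 2552 ± 1302 CPM in mammary gland, 2040 ± 579 in liver, 1950 ± 345 in rumen, 1736 ± 303 in duodenum and 1496 ± 254 in jejunum (SD, n = 18 each). Its range of tissue means was 1.71-fold, and 1.95-fold without the 3 shallow libraries, against 1.82-fold for miR-30c in both cases. Its mammary gland samples spread 17.3-fold, from 286 to 4937 CPM, and spanned the range of every other tissue. Only jejunum minus liver (-0.41, SE 0.19, limma adjusted p = 0.0365) and jejunum minus mammary gland (-0.49, SE 0.19, limma adjusted p = 0.0138) passed the threshold. Without the 3 shallow libraries its mammary gland mean was 2913 ± 1069 CPM (SD, n = 15), and rumen (-0.49, limma adjusted p = 0.000370), duodenum (-0.66, limma adjusted p = 3.60e-06) and liver (-0.46, limma adjusted p = 0.00103) were then each called lower than mammary gland. The only opposite-arm product listed, miR-30b-3p, averaged 1.24 to 2.85 CPM in the 5 tissues, with 1 to 95 reads per library.

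Across the 10 tissue pairs, calls are given beside the share of all 289 tested miRNAs called in the same direction. Rumen was higher than duodenum for 4 of 6 members (44.6% of all miRNAs) and higher than jejunum for the same 4 (43.9%), namely miR-30a-5p, miR-30c, miR-30e-5p and miR-30f. Against liver, 3 members were lower in rumen (28.4% of all miRNAs), 5 were lower in duodenum (31.8%) and 6 were lower in jejunum (31.1%). The members lower in rumen than liver were miR-30a-5p, miR-30c and miR-30f, and in duodenum miR-30d and miR-30e-5p were called lower too.

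Against mammary gland the members divided. miR-30c and miR-30e-5p were higher in rumen (49.8% of all miRNAs), and miR-30a-5p and miR-30f were lower (32.9%). In duodenum miR-30e-5p was higher (41.2%) and miR-30a-5p and miR-30f lower (38.4%). In jejunum miR-30e-5p was again higher (40.8%), while miR-30a-5p, miR-30b-5p, miR-30d and miR-30f were lower (37.7%). Liver was higher than mammary gland for miR-30c and miR-30e-5p (30.1%). Without the 3 shallow libraries, rumen was higher for 2 members (43.6% of all miRNAs) and lower for 4 (36.0%), and duodenum was higher for 1 (36.3%) and lower for 4 (47.8%). Jejunum was then lower for 5 members (45.3%) and higher for none (36.0%), and liver was higher for 2 (24.9%) and lower for 1 (49.5%).

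Duodenum against jejunum gave 0 of 6 members by limma and 0 by edgeR on the reads implied by the CPM, where 4.5% of all miRNAs were higher and 5.54% lower in duodenum, with 1 member, miR-30a-5p, at an unadjusted p under 0.05. The limma fit took 1 spread per miRNA from all tissues, mammary gland included, and no fit of duodenum and jejunum alone was run. Samples of the segment with the higher mean lay above the median of the other in 8 of 18 (miR-30d) to 17 of 18 (miR-30f). In the 3 pairs of liver with rumen, duodenum and jejunum the median member difference was opposite in sign to the median of all tested miRNAs. Jejunum minus liver had a median of -0.90 over the 6 members and 0.42 over all 289 miRNAs, duodenum minus liver -0.74 and 0.36, and rumen minus liver -0.29 and 0.47. The medians over all miRNAs depended on the scaling, and with upper-quartile scaling they were negative, like the members' medians, at -0.21 for rumen, -0.12 for duodenum and -0.064 for jejunum minus liver, so the contrast in sign did not hold under that scaling. With TMM scaling they were 0.063, 0.21 and 0.23.

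**Figure D2:**
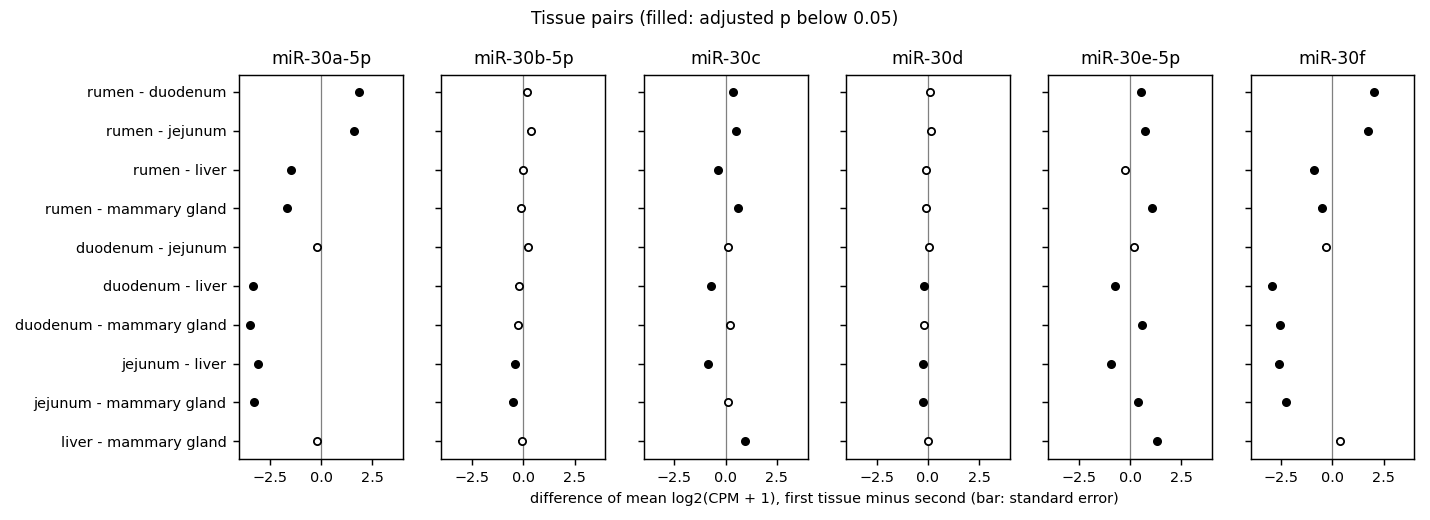
Difference of mean log2(CPM + 1) for each member in each of 10 tissue pairs (x axis, first tissue minus second), with bars of 1 standard error, mostly smaller than the points, and filled points for adjusted p below 0.05. miR-30a-5p ranges from 1.84 in rumen against duodenum to -3.48 in duodenum against mammary gland and miR-30f from 2.05 in rumen against duodenum to -2.95 in duodenum against liver, whereas miR-30b-5p and miR-30d stay near 0.

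Summed over its 6 members, the family took 12.8 ± 2.35% of mapped miRNA reads in mammary gland, 12.4 ± 1.19% in liver, 6.25 ± 0.77% in rumen, and 3.21 ± 0.25% and 3.21 ± 0.50% in duodenum and jejunum (SD, n = 18 each). These totals are descriptive and were not tested. Mammary gland and liver samples, from 8.73 to 18.7% and from 9.86 to 15.4%, lay above every rumen sample (4.80 to 7.81%), and rumen above every duodenum and jejunum sample (at most 3.96%).

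Composition changed together with the total. miR-30a-5p made up 81.0 ± 6.46% of the family in mammary gland, 73.0 ± 2.72% in liver, 53.1 ± 5.27% in rumen, 33.8 ± 4.72% in jejunum and 28.8 ± 3.04% in duodenum (SD, n = 18 each). It was the leading member in all 18 samples of rumen, liver and mammary gland, in 15 of 18 in jejunum and in 5 of 18 in duodenum. In the duodenum miR-30e-5p (30.9 ± 2.17%) and miR-30d (29.4 ± 2.00%) took shares whose ranges overlapped that of miR-30a-5p (22.6 to 33.8%). miR-30e-5p was second in all 18 samples of rumen and liver, and miR-30d was second in all 18 of mammary gland, where miR-30e-5p made up 6.01 ± 2.40% of the family. The remaining members were small throughout, with miR-30b-5p at 1.64 to 5.41%, miR-30c at 1.30 to 5.19% and miR-30f at 0.36 to 0.77% by tissue mean. Without the 3 shallow libraries the mammary gland share of miR-30a-5p was 78.6 ± 3.58% (SD, n = 15).

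**Figure D3:**
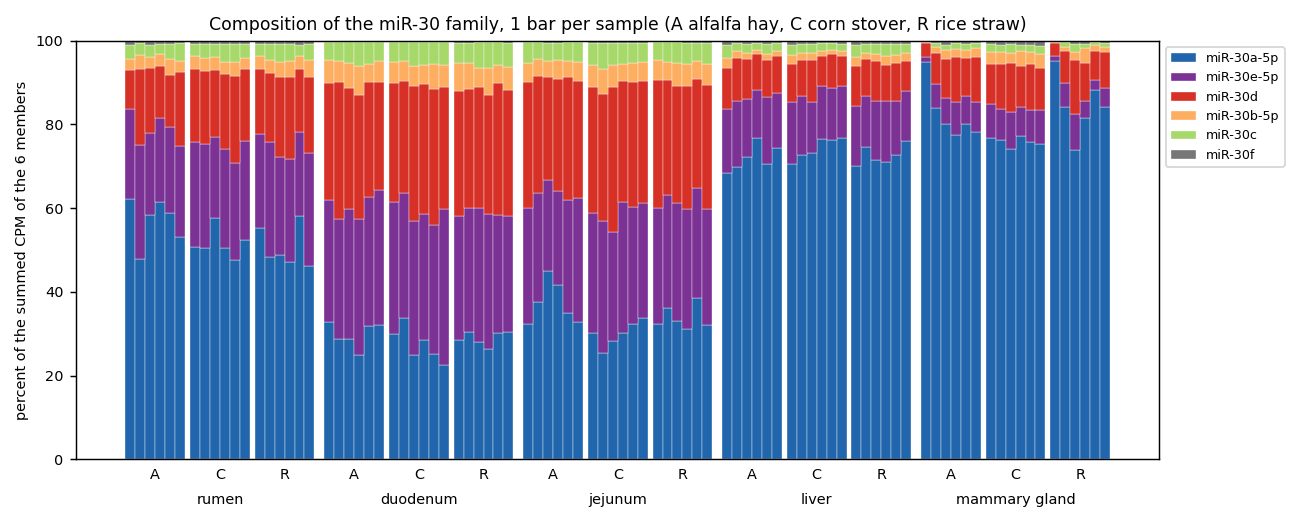
Percent of the summed miR-30 CPM contributed by each member, 1 stacked bar per sample, grouped by tissue and by diet (A alfalfa hay, C corn stover, R rice straw). miR-30a-5p is the largest part in rumen, liver and mammary gland, miR-30a-5p, miR-30d and miR-30e-5p take similar parts in duodenum, and the first alfalfa hay and first rice straw bars of mammary gland stand apart with 94.9 and 95.1% miR-30a-5p.

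Neighbouring genes tracked each other across tissues. Over the 15 tissue and diet means of log2(CPM + 1), the 3 neighbour pairs had the 3 highest Pearson correlations of all 15 member pairs, with 0.94 for miR-30c and miR-30e-5p, 0.94 for miR-30a-5p and miR-30f, and 0.81 for miR-30b-5p and miR-30d, followed by 0.66 for miR-30d and miR-30f. The points share libraries and tissues, so these values are descriptive. The ratio of miR-30a-5p to miR-30f averaged 70.1 ± 10.9 in rumen, 82.1 ± 16.5 in duodenum, 75.7 ± 13.0 in jejunum and 104 ± 21.7 in liver (SD, n = 18 each). Over these 4 tissues the levels themselves differed by up to 9.84-fold for miR-30a-5p and 7.72-fold for miR-30f. The ratio of miR-30e-5p to miR-30c averaged 4.77 to 6.77 by tissue, and that of miR-30d to miR-30b-5p 5.31 to 6.23. In mammary gland, however, the ratio of miR-30d to miR-30b-5p spread widely. It averaged 6.04 ± 4.22 there (SD, n = 18), with a median of 4.76 and a range of 2.59 to 18.5.

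In mammary gland the relation of miR-30a-5p to the other members rested on the 3 shallow libraries. Its ratio to miR-30f there had a median of 112 but ran from 62.9 to 1291, and their correlation over its 18 samples, with tissue and diet means removed, was -0.50, against 0.91 in rumen, 0.69 in duodenum, 0.71 in jejunum and 0.36 in liver. miR-30a-5p was also negatively related to the other 4 members in mammary gland (r from -0.67 to -0.56), where the 3 shallow libraries had the 3 lowest values of miR-30c, miR-30d and miR-30e-5p. Without these libraries the ratio averaged 122 ± 62.0 (SD, n = 15) with a maximum of 303, the correlation with miR-30f was 0.33 over 15 samples, and those with the other 4 members ran from -0.24 to 0.28. In rice straw replicate 1 miR-30a-5p reached 178128 CPM while miR-30f was at 182, miR-30b-5p at 377 and miR-30e-5p at 2389 CPM. Alfalfa hay replicate 1 was similar, with 151525, 117, 286 and 2135 CPM for the same members. Within tissues and diets over all 90 samples, miR-30c and miR-30e-5p had the highest correlation of the 15 pairs (0.89), while miR-30b-5p with miR-30d was at rank 7 (0.74) and miR-30a-5p with miR-30f at rank 11 (0.07). The median was 0.73 over the 15 member pairs and 0.24 over all 41616 pairs of tested miRNAs. That member median includes the 3 shallow libraries. Without them each mammary gland correlation among the members other than miR-30a-5p was lower as well. For miR-30b-5p with miR-30e-5p it went from 0.78 to -0.06, and for miR-30c with miR-30e-5p from 0.98 to 0.79. In rumen the correlations among these members ran from -0.02 to 0.61.

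**Figure D4:**
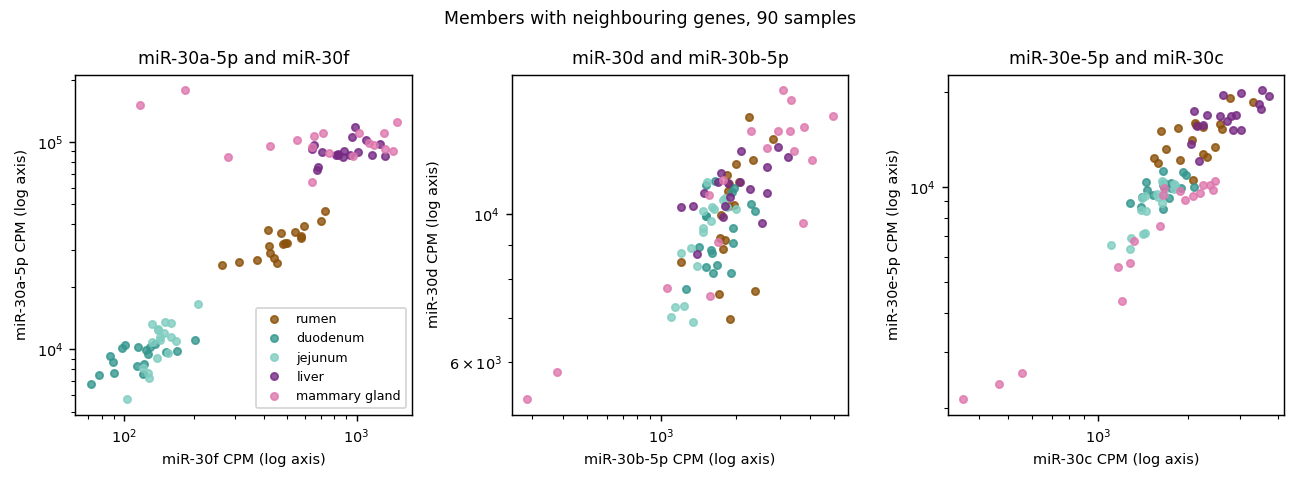
CPM of the members with neighbouring genes plotted against each other (log axes) in 90 samples coloured by tissue. Across tissues miR-30a-5p rises with miR-30f, and miR-30e-5p with miR-30c. miR-30d and miR-30b-5p differ little between tissue means and spread most in mammary gland. In 2 mammary gland libraries the highest miR-30a-5p comes with low miR-30f.

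Outside the family, the 3 miRNAs whose profile over the 90 samples was most like each member are given as a description. For miR-30a-5p they were miR-99a-3p (r = 0.88), miR-107 (0.84) and miR-101 (0.76), and for miR-30f they were miR-107 (0.91), miR-99a-3p (0.85) and miR-2478 (0.85). For miR-30c they were miR-22-3p (0.82), miR-22-5p (0.80) and miR-331 (0.79), and for miR-30e-5p they were miR-505 (0.85), miR-22-3p (0.79) and miR-2285f (0.78). For miR-30b-5p they were miR-340 (0.76), miR-126-3p (0.76) and miR-326 (0.71), and for miR-30d they were miR-126-3p (0.79), miR-32 (0.69) and miR-326 (0.67). With tissue and diet means removed, the likeness of miR-30a-5p to miR-99a-3p was -0.24 and that to miR-107 was -0.09, whereas that of miR-30c to miR-22-3p was 0.81.

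Diet was compared within each tissue by a moderated F test over the 3 groups of 6. In the jejunum 2 of 6 members passed, miR-30a-5p (limma adjusted p = 0.000321) and miR-30b-5p (limma adjusted p = 0.0471), where 23.8% of 336 miRNAs passed. The lowest, median and highest CPM of miR-30a-5p were 11103, 13331 and 16473 on alfalfa hay, 10848, 11720 and 12533 on rice straw, and 5750, 7909 and 9616 on corn stover. All 6 corn stover samples lay below all 12 samples of the other diets. Alfalfa hay minus corn stover was 0.74 on the log2 scale (SE 0.12, limma adjusted p = 0.000148, with 14.0% of miRNAs called higher in that pair) and corn stover minus rice straw was -0.58 (SE 0.12, limma adjusted p = 0.00157, with 19.3% called lower). Alfalfa hay minus rice straw was 0.17 (SE 0.12, limma adjusted p = 0.817, with 0.0% called). The call for miR-30a-5p held under every alternative run, with adjusted p from 0.000272 to 0.00207 by limma or edgeR.

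For miR-30b-5p in the jejunum the lowest, median and highest CPM were 1137, 1561 and 1803 on alfalfa hay, 1093, 1276 and 1475 on corn stover, and 1394, 1707 and 1996 on rice straw. The corn stover range overlapped both others, although 4 of 6 rice straw samples lay above it. Corn stover minus rice straw was -0.40 (SE 0.12, limma adjusted p = 0.0181), and the F test was lost with upper-quartile scaling (limma adjusted p = 0.0782) and TMM scaling (limma adjusted p = 0.217). The other 4 members had corn stover means below both other diets without passing the F test, with limma adjusted p of 0.0835 for miR-30d, 0.0873 for miR-30e-5p, 0.181 for miR-30c and 0.194 for miR-30f. Alfalfa hay replicate 3, the shallowest jejunum library with 3987988 reads, had the lowest miR-30d and miR-30e-5p of its diet. Without the shallowest library, miR-30d (limma adjusted p = 0.0167) and miR-30e-5p (limma adjusted p = 0.0150) passed as well, where 32.4% of 336 miRNAs did.

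Summed over the family, the jejunum total was 26342 ± 3244 CPM on corn stover, 35445 ± 3540 on alfalfa hay and 34518 ± 1524 on rice straw (SD, n = 6 each), and the share of miR-30a-5p was 30.0 ± 2.98%, 37.4 ± 5.07% and 33.9 ± 2.89% in the same order. Beside these differences, the summed smooth muscle markers (4 of 4 listed, mostly miR-143) had medians of 257257 CPM on corn stover, from 184735 to 297235, against 205319 on alfalfa hay, from 147342 to 247253, and 187386 on rice straw, from 152186 to 237995. The summed immune markers (5 of 5 listed) had medians of 21088, 29560 and 28254 CPM in the same order, with ranges of 18567 to 29324, 20154 to 31481 and 20942 to 31272. The intestinal markers (3 of 3 listed) had medians of 213911, 236682 and 252984 CPM with overlapping ranges. The part of these cell types in the miR-30 differences was not tested.

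In mammary gland the diet pattern was different. None of the 6 members passed the F test by limma (3.72% of 323 miRNAs did), none passed with edgeR, and 4 had an unadjusted p under 0.05. The lowest limma adjusted p values were 0.0791 for miR-30e-5p, 0.0829 for miR-30c and 0.0881 for miR-30f, while miR-30a-5p was at 0.597. The corn stover samples lay apart from the rice straw samples for 4 members, and how many of all 323 miRNAs did so was not counted. At an unadjusted limma p under 0.05 in this pair there were 5 of 6 members and 129 of all 323 miRNAs. miR-30e-5p ran from 9338 to 10444 CPM on corn stover with a median of 9931, from 2389 to 7549 on rice straw with a median of 4984, and from 2135 to 9954 on alfalfa hay with a median of 9259. miR-30c ran from 2085 to 2463 CPM on corn stover, above all 12 samples of the other diets, which reached 1950 on alfalfa hay and 1612 on rice straw. miR-30f ran from 968 to 1438 CPM on corn stover and from 182 to 764 on rice straw, and miR-30d from 12078 to 14030 and from 5806 to 11273. miR-30a-5p overlapped among all 3 diets, with means of 115742 ± 20365 CPM on alfalfa hay, 95700 ± 8407 on corn stover and 102949 ± 39372 on rice straw (SD, n = 6 each).

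As a size, corn stover minus rice straw was 1.48 for miR-30f (SE 0.47), 1.44 for miR-30b-5p (SE 0.52), 1.26 for miR-30c (SE 0.39), 1.19 for miR-30e-5p (SE 0.36), 0.61 for miR-30d (SE 0.27) and -0.04 for miR-30a-5p (SE 0.22) on the log2 scale. These differences were not read as calls because the F test was not passed, and the median of all 323 miRNAs in this pair was itself shifted by 0.63. None of the 3 shallow libraries was from corn stover. Without these libraries miR-30c, miR-30e-5p (both limma adjusted p = 0.0150) and miR-30f (limma adjusted p = 0.0443) passed the F test, where 11.6% of 327 miRNAs did, with 4 rice straw and 5 alfalfa hay samples left, and rice straw miR-30c still lay below corn stover at 1165 to 1612 CPM. Without the shallowest library alone 4 members passed, where 25.5% of 326 miRNAs did.

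Of the cell type markers in mammary gland, smooth muscle separated corn stover from rice straw, and the other lists overlapped between diets. Summed smooth muscle markers were 130048 to 228766 CPM on rice straw and 70889 to 127531 on corn stover, without overlap, and 97066 to 210844 on alfalfa hay. Summed glandular epithelium markers (5 of 5 listed) were 10598 to 45143 CPM on rice straw, 38600 to 58216 on corn stover and 25610 to 67448 on alfalfa hay. Summed immune markers were 573 to 8666, 3590 to 9370 and 1936 to 6378 CPM in the same order. The part of these cells and of depth in the diet differences was not tested.

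**Figure D5:**
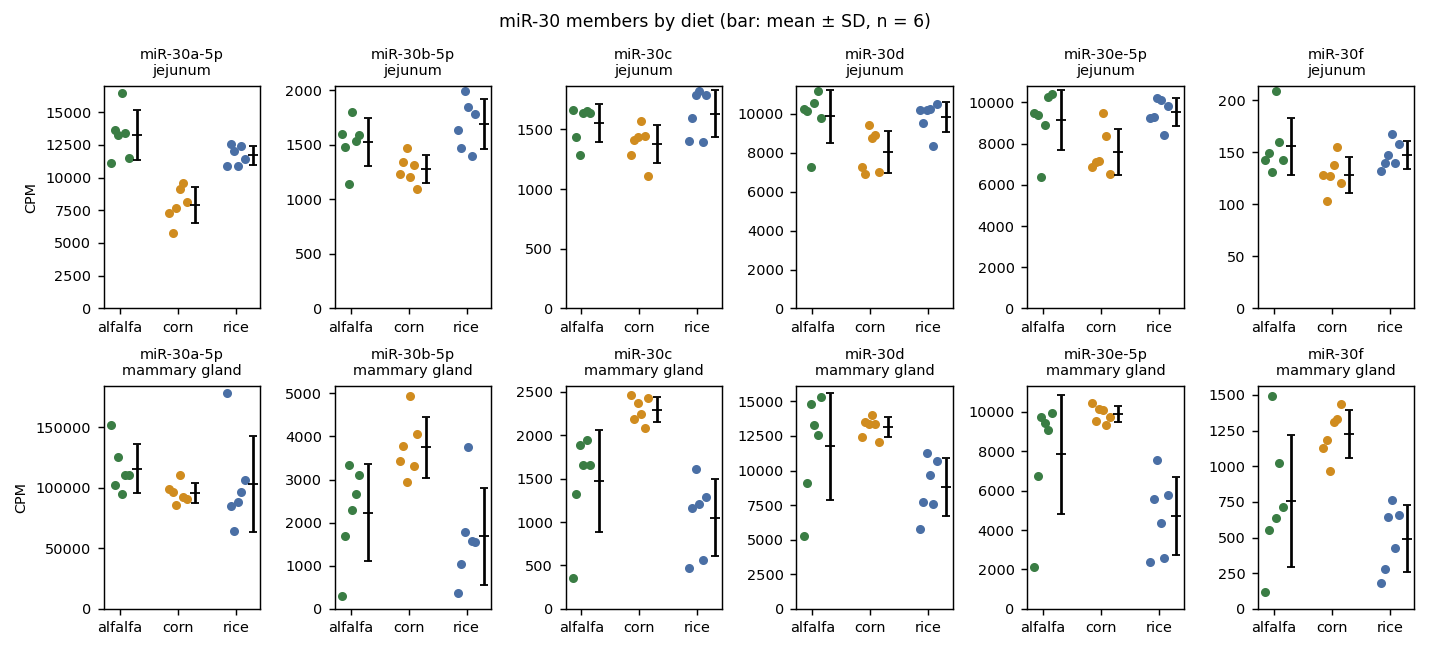
CPM of each member by diet in jejunum (top) and mammary gland (bottom), 1 point per sample with the mean and SD (n = 6) beside them. In jejunum all corn stover samples lie lowest for miR-30a-5p, and in mammary gland the corn stover samples lie above rice straw for miR-30c, miR-30d, miR-30e-5p and miR-30f but not for miR-30a-5p.

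In rumen, duodenum and liver no member passed the diet test by limma or by edgeR, where 1.49%, 0.0% and 0.0% of all miRNAs passed by limma. At an unadjusted p under 0.05 there was 1 member in rumen, 0 in duodenum and 0 in liver. The rumen member was miR-30d (limma adjusted p = 0.141), at 6961 to 11093 CPM on alfalfa hay, 10323 to 14005 on corn stover and 8885 to 12950 on rice straw. Liver miR-30a-5p averaged 99241 ± 11167 CPM on corn stover, 86273 ± 5570 on alfalfa hay and 87122 ± 9305 on rice straw (SD, n = 6 each), and its diets overlapped (limma adjusted p = 0.853).

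A test of the tissue by diet interaction over all 90 samples addressed whether diet differences changed from tissue to tissue. All 6 members passed (45.7% of 289 miRNAs did), with limma adjusted p from 0.000895 for miR-30e-5p to 0.00698 for miR-30b-5p. All 6 also passed with edgeR (115 of 289 miRNAs did) and without the 3 shallow libraries (39.8% did). With upper-quartile or TMM scaling 2 members passed, and the share of all miRNAs under these scalings is not given here. Without mammary gland 19.7% of 295 miRNAs passed. Of the members, miR-30a-5p (limma adjusted p = 0.000411) and miR-30d (limma adjusted p = 0.00839) still passed and the other 4 did not (limma adjusted p from 0.121 to 0.779). Without jejunum 29.9% of 291 miRNAs passed. There miR-30b-5p, miR-30c, miR-30e-5p and miR-30f still passed (limma adjusted p from 0.0110 to 0.0345), and miR-30a-5p (limma adjusted p = 0.492) and miR-30d (limma adjusted p = 0.0803) did not. Both alternatives were chosen after seeing the data.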

How the data were processed

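Small RNA libraries were made from 90 tissue samples of 18 cows. Quality filtering with CASAVA 1.8 was followed by sRNAbench, with which the authors removed adaptors and matched reads over 15 nt in length to miRBase 22, allowing 2 mismatches and up to 10 mappings. The deposited values were CPM, computed by the authors relative to reads mapped to annotated miRNAs. No genome build is given in the sources used here. In every sample all CPM values (100%) were multiples of one unit, within a tolerance of 0.05 reads. That unit was taken to be 1 read, which gave mapped totals between 937556 and 15621501 reads, where 3 reads were worth 0.19 to 3.20 CPM. Precision beyond sample spread covers counting error only.

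The labels gave each sample's group and replicate number. The members, lists and tests were chosen with earlier results of these data known. limma 3.58.1 in R 4.3.3 (lmFit, eBayes with an intensity trend) was run on log2(CPM + 1) over every miRNA listed in the tissues compared with CPM above 1 in more than 50% of samples of a tissue, and p-values were adjusted by the Benjamini-Hochberg method, with 0.05 as the limit for a call. Fold changes are on the log2(CPM + 1) scale, which understates the change of low miRNAs. Tissue pairs and the interaction used all 90 samples and the diet F test the 18 of a tissue. The fits over 90 samples took 1 spread per miRNA for all tissues and treated samples as independent. Diet pairs were read only for members past the F test. edgeR 4.0.16 was run on the implied reads as an alternative, and other scalings, pseudocounts of 0.1 and 5 CPM, filters, left-out libraries and a replicate block were tried. The main limma fits, but none of the alternatives, were checked on simulated log2 values with known changes. The noise was normal, without counting error or differences in depth. Recovery was lowest in the mammary gland diet test. The text names the 6 members, the other miR-30 row, the 3 miRNAs most correlated with each member over 90 samples and the marker miRNAs. The marker lists were liver, stratified epithelium, intestine, glandular epithelium, red blood cells, smooth muscle and immune cells. No pair of samples was identical, and p-values within a tissue measure the spread between cows, while the tissue pairs compare samples of the same cows without pairing them. Python 3.11.15, numpy 2.4.6, pandas 2.3.3 and matplotlib 3.10.9 were used for tables and plots. Mature sequences were not used here.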

Additional observations from a re-analysis of the deposited data

Results flagged for a closer look

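Of 105 groups of 6 samples tested for a single sample far from the others, 8 stood out, where chance would give about 1 in 20, or 5.25. In mammary gland on rice straw, replicate 1 had 178128 CPM of miR-30a-5p, with the others from 64439 to 106380, and it was also a library of 1875290 reads. In jejunum on alfalfa hay, replicate 3, the shallowest of that tissue, had the lowest miR-30d (7254 CPM, the others at least 9776) and the lowest miR-30e-5p (6370 CPM, the others at least 8896), and replicate 4 had the highest miR-30f (209 CPM, the others at most 159). In liver on alfalfa hay, replicate 1 had the highest miR-30b-5p (3239 CPM, the others at most 1894) and miR-30f (1326 CPM, the others at most 836), and replicate 2 had the lowest family total (108958 CPM, the others at least 120020), in the library that also held 1525 CPM of miR-205. In duodenum on corn stover, replicate 5 had the highest miR-30b-5p (1928 CPM, the others at most 1647).

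Diet differences varied between tissues for all 6 members by limma's interaction test, with adjusted p of 0.00291 for miR-30a-5p, 0.00698 for miR-30b-5p, 0.00196 for miR-30c, 0.00422 for miR-30d, 0.000895 for miR-30e-5p and 0.00214 for miR-30f. The same test was passed by 45.7% of all 289 miRNAs, and 2 of the 6 members passed it with upper-quartile scaling and 2 with TMM scaling. Without mammary gland, the tissue with the widest spread, 2 members passed, where 19.7% of 295 miRNAs did.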

How the results depend on the processing

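Of the 36 member differences called over the 10 tissue pairs, 34 stayed called in the same direction under every alternative run. The exceptions were miR-30c in rumen against duodenum and miR-30e-5p in jejunum against mammary gland, given above with their values. The cause of the following changes was not tested. With upper-quartile scaling the signs turned for rumen minus duodenum of miR-30b-5p (-0.020) and miR-30d (-0.089), rumen minus jejunum of miR-30d (-0.033), jejunum minus mammary gland of miR-30c (-0.056), and liver minus mammary gland of miR-30a-5p (0.22) and miR-30b-5p (0.32, adjusted p = 0.0194 by limma). With TMM scaling the corresponding values were -0.11, -0.18 and -0.091 for the first 3, and 0.042 and 0.14 for the last 2. Jejunum minus mammary gland of miR-30c was -0.079 with edgeR, -0.013 without the shallowest library of each tissue and -0.24 without the 3 shallow mammary gland libraries, where duodenum minus mammary gland was -0.11, and liver minus mammary gland of miR-30d was -0.042, -0.053 and -0.15 in the same order.

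Members called became 6 in rumen against liver and 1 in duodenum against jejunum with either scaling, 5 in duodenum against mammary gland with either scaling, edgeR or either omission of libraries, and 5 (upper quartile) or 4 (TMM) in liver against mammary gland. Of all 289 miRNAs, 247 (upper quartile) and 241 (TMM) were called in rumen against liver, against 239. These counts were 32 and 31, against 29, in duodenum against jejunum, and 220 and 217, against 200, in liver against mammary gland. In duodenum against mammary gland they were 239, 235 and 237 (edgeR), against 230. Without the shallowest library of each tissue 40.5% were higher in duodenum and 43.3% lower, and without the 3 libraries 36.3% and 47.8%. Duodenum against jejunum gave 46 of all miRNAs without the 3 libraries. The percent of called miRNAs higher in the first tissue was 65.7 in rumen against liver, 43.7 with upper-quartile and 52.3 with TMM scaling, and likewise 62.3, 51.6 and 47.0 in rumen against duodenum, 59.9, 51.4 and 48.6 in rumen against jejunum, 60.3, 50.2 and 52.9 in rumen against mammary gland, 44.8, 59.4 and 64.5 in duodenum against jejunum, 61.2, 45.0 and 54.8 in duodenum against liver, 62.5, 44.4 and 56.1 in jejunum against liver, and 43.5, 62.7 and 55.8 in liver against mammary gland. Upper-quartile scaling moved the family total to 51628 CPM in rumen and 169452 CPM in liver, above the 151394 CPM of mammary gland.

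For diet in jejunum, 1 member was called with upper-quartile scaling, TMM scaling or the replicate block, and 4 without the shallowest library. In mammary gland the members called were 4 without the shallowest library, 4 with the replicate block and 3 without the 3 libraries, and all miRNAs called were 0 (pseudocount 0.1 CPM), 19 (pseudocount 5 CPM), 0 (edgeR), 83, 55 and 38, against 12, with 101 at an unadjusted p under 0.05. In rumen all miRNAs called were 8 (mean of at least 10 CPM), 3 (without the shallowest library) and 3 (replicate block), against 5. The interaction gave 2 members with upper-quartile or TMM scaling and without mammary gland, and 58 of all miRNAs without mammary gland or 87 without jejunum, against 132. Without liver alfalfa hay replicate 2, 1 miRNA was called for diet in liver, against 0, and members called in liver against mammary gland were 3, against 2.

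The labels do not say that a replicate number marks a cow or a shared day. Deviations of same-numbered samples correlated by -0.44 to 0.58 across tissues, highest in duodenum and jejunum (median 0.18, 14 of 18 above 0.1, 11 of 18 best with their own number), with 4 of 18 at or below 0.1. Samples of the same diet with other numbers had a median of -0.02 in duodenum and jejunum. Liver and mammary gland came next, with a median of 0.13, 12 of 18 above 0.1 and 7 of 18 best with their own number. The main fits did not pair same-numbered samples, because whether a number marks a cow cannot be told from the labels. The replicate block changed no member count of a tissue pair and left 6 in the interaction, which 46.0% of 289 miRNAs then passed. The shallowest libraries were of mammary gland, where each member also had its largest coefficient of variation among the 5 tissues (24.7 to 52.2%).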
